A study of Mus musculus with 2 samples.

Results

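Interferon-high classical monocytes made up 292 of the 5167 leukocytes profiled from mouse tumors, 178 of 2449 cells in the library labelled wt and 114 of 2718 in the library labelled cko. They were chosen cell by cell from unique molecular identifier (UMI) counts, that is, counts of distinct RNA molecules. A classical monocyte had at most 10% mitochondrial UMIs, at least 2 UMIs of Ly6c2, fewer than 10 of C1qa, C1qb and C1qc together and fewer than 4 of Ace, Treml4, Ear2 and Adgre4 together, with S100a8 and S100a9 under 1% of its UMIs. It counted as interferon-high when Ifit2, Cxcl10, Cfb and Gbp2 together reached at least 8 UMIs. The 4 gate genes and everything measured in the same cells against the remaining classical monocytes therefore describe the selection, and no test was made on them.

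CD45+ cells, the pan-leukocyte fraction, came from subcutaneous tumors of LLC, a mouse lung carcinoma line. LLC cells were implanted into C57/BL6 mice at 8 weeks of age and the tumors were taken 14 days later, at 10 weeks. All animals carried a loxP-flanked miR-21 (miR-21 fl/fl), and the knockout arm also carried LysMCre, a Cre recombinase in the lysozyme M gene that acts in myeloid cells expressing lysozyme M, so that deletion reaches most macrophages and granulocytes and a varying part of monocytes. Cells of 3 mice were pooled into 1 droplet library per genotype. With 1 library on each side no difference between libraries has a replicate check, and every interval below covers counting error only.

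The labels of the libraries conflict: the titles read wt and cko, whereas the descriptions of the source give the reverse, and 1 protocol describes a sort of macrophages although the design has CD45+ cells. The libraries are therefore called by their titles, and every direction between them is given by the titles. Lyz2, the lysozyme gene into which LysMCre is inserted, was lower in the library that its title labels cko, at 20198 and 11358 CPM (UMIs per 1000000 UMIs of the cells summed) in the interferon-high monocytes labelled wt and cko. The libraries held 24492486 and 27163485 UMIs, in the order wt-labelled and cko-labelled that is kept below for every pair of values. The interferon-high monocytes contributed 1650754 and 1019403 of these, with medians of 8773 and 8662 UMIs and 2473 and 2406.5 genes per cell. They were somewhat deeper than the other classical monocytes, whose medians were 7744 and 7812.5 UMIs, and mitochondrial shares were low, with medians of 1.74% and 1.93%. The 5 cell barcodes seen in both libraries included no interferon-high monocyte.

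Classical monocytes are the Ly6C-high, CCR2-dependent cells that leave the bone marrow for the blood and enter inflamed tissue and tumors, where they mature into macrophages and monocyte-derived dendritic cells. Type I interferons signal through IFNAR to the ISGF3 complex, which contains STAT2 and IRF9 and binds the interferon-stimulated response element (ISRE) of antiviral genes. Interferon-gamma signals through IFNGR to factors that bind gamma-activated sites (GAS) and, through IRF1, drive guanylate-binding proteins, antigen presentation and CXCL9, and the gene sets induced by the 2 routes overlap widely.

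The promoters of the genes that carry the program were read from RefSeq windows on GRCm38.p6, which run from 250 bases before to 50 bases after the gene start. They are shown because gate genes and some of the higher antiviral genes can be compared at the element on which the interferon pathways act. Gbp2 lies at chr3:142620413-142620712 on the plus strand, Cxcl10 at chr5:92348840-92349139 on the minus strand, Ifit1 at chr19:34640639-34640938 on the plus strand, Rsad2 at chr12:26456403-26456702 on the minus strand and Isg15 at chr4:156200769-156201068 on the minus strand. Each is written 5′ to 3′ along its gene, and capitals mark matches to the ISRE core, spelled as GAAA, any 2 bases, GAAA or on the opposite strand TTTC, any 2 bases, TTTC.
Gbp2: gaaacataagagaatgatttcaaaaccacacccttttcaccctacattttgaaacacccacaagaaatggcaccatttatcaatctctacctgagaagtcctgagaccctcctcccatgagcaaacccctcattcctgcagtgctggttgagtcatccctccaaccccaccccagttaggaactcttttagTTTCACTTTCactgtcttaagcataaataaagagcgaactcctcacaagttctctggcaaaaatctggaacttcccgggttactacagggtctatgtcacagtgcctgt
Cxcl10: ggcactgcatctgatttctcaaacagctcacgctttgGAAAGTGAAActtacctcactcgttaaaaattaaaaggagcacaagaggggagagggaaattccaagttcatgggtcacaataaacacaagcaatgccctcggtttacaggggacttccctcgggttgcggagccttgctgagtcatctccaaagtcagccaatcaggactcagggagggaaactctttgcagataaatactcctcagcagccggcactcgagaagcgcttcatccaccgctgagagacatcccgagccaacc
Ifit1: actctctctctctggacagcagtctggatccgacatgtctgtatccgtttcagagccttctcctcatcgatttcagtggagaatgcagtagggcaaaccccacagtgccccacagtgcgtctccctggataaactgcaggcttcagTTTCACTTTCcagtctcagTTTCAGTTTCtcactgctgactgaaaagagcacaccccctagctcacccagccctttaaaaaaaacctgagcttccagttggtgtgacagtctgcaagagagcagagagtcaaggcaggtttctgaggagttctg
Rsad2: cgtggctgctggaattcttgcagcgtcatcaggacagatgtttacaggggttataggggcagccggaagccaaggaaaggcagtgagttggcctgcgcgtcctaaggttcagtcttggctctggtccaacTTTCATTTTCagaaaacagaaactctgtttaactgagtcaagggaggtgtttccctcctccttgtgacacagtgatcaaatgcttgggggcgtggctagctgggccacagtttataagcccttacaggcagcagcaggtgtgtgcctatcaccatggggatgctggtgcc
Isg15: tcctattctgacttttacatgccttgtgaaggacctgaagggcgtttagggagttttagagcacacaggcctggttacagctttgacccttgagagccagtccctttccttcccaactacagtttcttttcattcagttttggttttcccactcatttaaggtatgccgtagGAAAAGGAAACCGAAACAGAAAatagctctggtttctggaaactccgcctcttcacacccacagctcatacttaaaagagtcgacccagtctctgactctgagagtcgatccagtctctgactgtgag

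Counted from the gene start, the match began 59 bases upstream in Gbp2, 213 in Cxcl10, 104 and 85 in Ifit1 and 120 in Rsad2, and of the 3 matches of Isg15, at 78, 72 and 66 bases upstream, each overlaps the next. By gene, counting a match in any of its windows, an ISRE core stood in 38 of 102 genes 2-fold higher in interferon-high monocytes (37.3%). It stood in 243 of 5235 compared genes (4.64%) and in 1079 of all 27025 genes with a window (3.99%). The 102 include the gate genes Gbp2 and Cxcl10, each with a match, and Ifit2, without a match, so this share partly describes the selection. The share with an ISRE core was 20 of 31 (64.5%) in the list of type I interferon-stimulated genes and 8 of 9 (88.9%) in the list of guanylate-binding and immunity-related GTPases. The GAS core, spelled TTC, any 3 bases, GAA, reads the same on both strands and can overlap an ISRE match. By gene it was in 6 of 9 GTPases (66.7%), 3 of 31 type I genes (9.68%) and 9.55% of all genes with a window. Of the 102 higher genes 19 had it (18.6%), against 442 of the 5235 compared (8.44%). The windows of Ifit2 and Cxcl9 held no ISRE core under this spelling. A match is a match of letters, and no binding was measured.

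The label was checked against marker genes. The 8 classical monocyte markers that the rule did not use were all detected, with summed levels of 12990 and 15519 CPM against 9661 and 12045 in the other classical monocytes. Plac8 made up most of the sum and of the gap, at 9423 and 9237 CPM against 5873 and 5938 CPM, whereas F13a1, Fn1 and Hp were lower in the members of both libraries. Ccr2, the chemokine receptor that draws these cells out of the marrow, differed little, at 760 and 892 CPM against 806 and 934 CPM. The 4 nonclassical markers outside the rule summed to 32.7 and 43.2 CPM, the 7 macrophage markers outside it to 1148 and 1489 CPM, with Apoe, an apolipoprotein, at 533 and 866 CPM, and the 6 neutrophil markers outside it to 90.9 and 125 CPM. Markers of conventional dendritic cells summed to 19.99 and 8.83 CPM with Cd209a at 0, and tumor or epithelial markers to 3.03 and 8.83 CPM. The plasmacytoid list summed to 834 and 939 CPM, nearly all of it from Bst2 (410 and 452 CPM), Irf8 (383 and 432 CPM) and Tcf4 (39.98 and 53.95 CPM), which are not limited to those cells, while Siglech, Ccr9, Klk1 and Ly6d were at 0 in both libraries. Of the B cell markers Cd79a and Ms4a1 were at 0 and Cd79b had 9 and 1 UMIs. Among these lists the classical monocyte markers outside the rule thus had the highest sum.

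Other lineages weighed more on the cells outside the interferon-high group. T and NK cell markers summed to 105 and 91.2 CPM in interferon-high monocytes and to 1028 and 904 CPM in the other classical monocytes. At least 3 UMIs of a marker set of T and NK, plasmacytoid, conventional dendritic, B or epithelial cells were present in 8 of 178 (4.49%) and 2 of 114 (1.75%) interferon-high monocytes, and in 89 of 468 (19.0%) and 81 of 494 (16.4%) of the others. Comparisons are therefore also given without these cells. Doublets were not removed by the gate: Scrublet's automatic threshold marked 0 and 5 cells, and removing the highest scores at the loading rate took away 4 and 3 members.

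Gbp2, an interferon-induced guanylate-binding GTPase, supplied most of the gate. It was found in 98.3% and 96.5% of the members, at 1609 and 1614 CPM, and made up 62.5% and 53.0% of their gate UMIs. Gbp2 alone reached 8 UMIs in 121 (68.0%) and 75 (65.8%) members. Cxcl10, a ligand of the T cell receptor CXCR3, supplied 25.1% and 34.9% of gate UMIs and was seen in 50% and 58.8% of cells. Ifit2, an antiviral tetratricopeptide-repeat protein, was seen in 47.2% and 50.9%, and Cfb, complement factor B of the alternative pathway, in 46.1% and 46.5%. So Gbp2 was nearly universal among the members and each of the other gate genes was found in about every other cell. All 4 genes were detected in 33 and 24 cells, and a single one in 41 and 19. The gate genes lie apart in the genome (GRCm38), Ifit2 at chr19:34550694-34576419, Cxcl10 at chr5:92346638-92348889, Cfb at chr17:34856374-34862518 and Gbp2 at chr3:142620602-142638008. Reads of Gbp2 and its near-identical neighbour Gbp2b can be misassigned, as can those of Ifit3 and Ifit3b, Tgtp1 and Tgtp2, and Lyz1 and Lyz2.

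The summed gate count had no gap at the threshold. Its median was 16 and 17 UMIs in interferon-high monocytes, with upper quartiles of 30 and 34.5 and maxima of 116 and 158, and 1 UMI in the others. Just outside, with 6 or 7 UMIs, lay 25 and 37 cells, and just inside, with 8 or 9, lay 26 and 13. Isg15, which was not used for the gate, stood at 566 and 900 CPM just outside and at 1194 and 1243 CPM just inside, and the receptor gene Fcgr1 at 601 and 886 CPM outside and 834 and 1065 CPM inside. Cxcl9 stood at 119 and 134 CPM outside and at 33.2 and 118 CPM inside, and Ly6a at 914 and 955 CPM outside and 970 and 1824 CPM inside. Summed over each side, all of these but Cxcl9 were thus higher just inside the limit, and the group is the upper range of a continuous score.

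**Figure D1:**
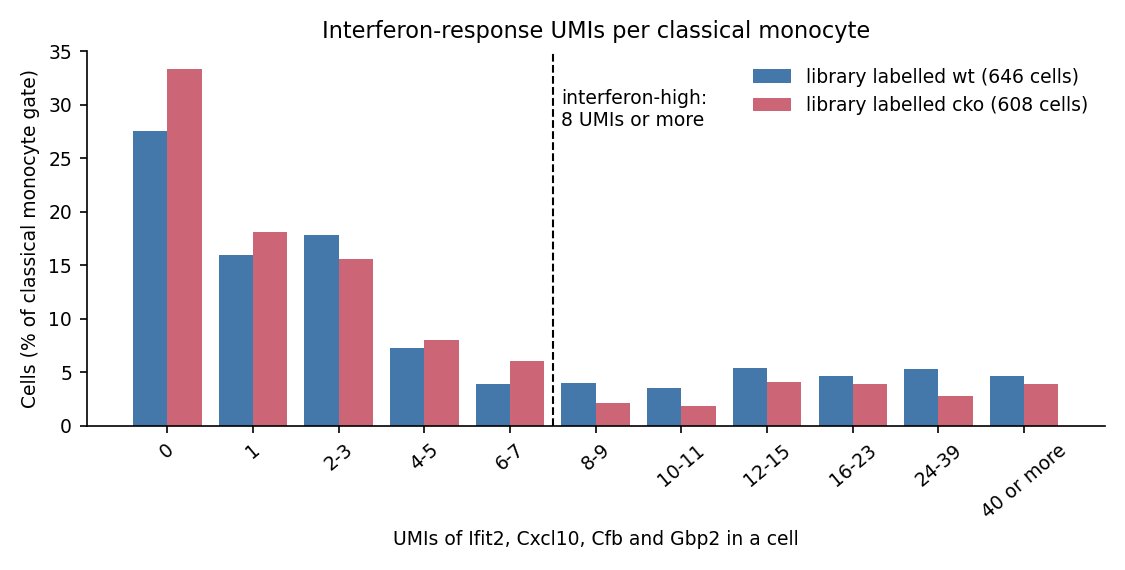
Share of classical monocytes (percent, y axis) by summed UMIs of Ifit2, Cxcl10, Cfb and Gbp2 (x axis), for the libraries labelled wt (646 cells) and cko (608 cells), with the limit of 8 UMIs marked. In both libraries the shares run across the limit without a gap, and 30 and 24 cells hold 40 UMIs or more.

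Of the classical monocytes, 178 of 646 were interferon-high in the library labelled wt, a share of 27.6% (95% exact Clopper-Pearson interval 24.1 to 31.2%), and 114 of 608 in the library labelled cko, 18.8% (15.7 to 22.1%). The ratio of the shares, cko over wt, was 0.680 (0.533 to 0.866). Of all cells the shares were 7.27% (6.27 to 8.37%) and 4.19% (3.47 to 5.02%). The share was thus lower in the library labelled cko at the limit of 8 UMIs, but its size followed the limit. At 6 UMIs the shares were 31.4% and 24.8% with a ratio of 0.790 (0.636 to 0.980), at 12 UMIs 19.97% and 14.8% with 0.741 (0.560 to 0.978), and without cells carrying markers of other lineages 31.0% and 21.3% with 0.689 (0.538 to 0.880). A limit that scales with depth, 8 gate UMIs per 10000 UMIs, gave 29.9% and 23.5% with 0.787 (0.630 to 0.982). After thinning every cell to 3000 UMIs, with a limit of 3 gate UMIs, the shares were 28.0% (181 cells) and 22.7% (138 cells) and the ratio was 0.810 (0.644 to 1.02). A gate on Ifit2, Cxcl10 and Cfb alone, at 8 UMIs, held 60 and 50 cells, 9.29% and 8.22%, with a ratio of 0.885 (0.596 to 1.31). The interval therefore included equal shares after thinning and with Gbp2 left out, and not under the other limits given here.

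The same gate genes were read in neighbouring cell types after thinning to 3000 UMIs, which left out no cell. At least 3 gate UMIs were found in 88.2% and 90.4% of interferon-high monocytes and in 5.13% and 7.09% of the other classical monocytes. Both shares are partly set by the gate rule, which caps the gate sum of the other classical monocytes. The neighbouring monocyte and macrophage gates have no such cap, so their shares are not comparable with these. All classical monocytes together, without the cap, stood at 28.0% of 646 and 22.7% of 608. The share was 34.3% of 309 and 26.6% of 256 transitional cells, which carry both Ly6c2 and C1q, 22.4% of 308 and 16.4% of 305 nonclassical monocytes, and 16.2% of 542 and 10.9% of 781 Ly6c2-low C1q macrophages. T and NK cells stood at 4.19% and 3.54%, at median depths of 6164 and 6786 UMIs. They include 66 and 62 of the other classical monocytes, those with T and NK markers. Left out of them are the 5 and 2 interferon-high cells with such markers, so their share is also lowered by the rule. Gate transcripts were thus present along the whole monocyte-to-macrophage series and not in classical monocytes alone. In every myeloid gate with C1q or nonclassical markers the share was lower in the library labelled cko, and these gates share their libraries with the monocytes, so they are no separate check. Taken gene by gene, at least 1 UMI of Cxcl10 remained in 39.9% and 46.5% of interferon-high monocytes in 2.35% and 3.24% of other classical monocytes and in 2.33% and 7.09% of T and NK cells, so T and NK cells gave no floor of free RNA for Cxcl10 in the library labelled cko. For Cfb the shares were 24.7% and 24.6% of interferon-high monocytes and 0.465% and 0.787% of T and NK cells. For Gbp2 they were 89.9% and 86.8% of interferon-high monocytes, 30.1% and 27.9% of other classical monocytes and 18.6% and 17.7% of T and NK cells.

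**Figure D2:**
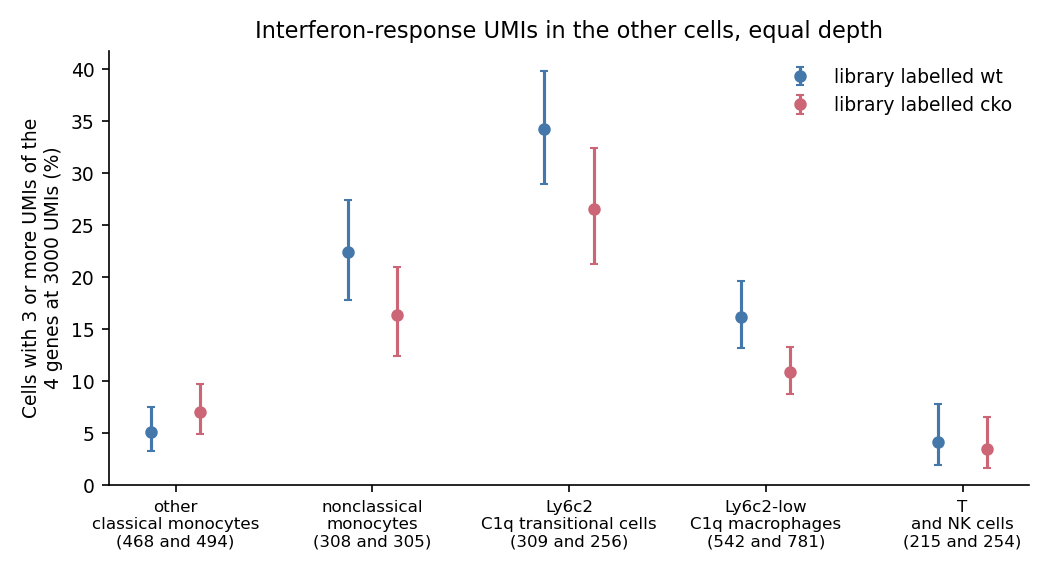
Share of cells (percent, y axis) with at least 3 UMIs of the 4 gate genes after thinning to 3000 UMIs, by cell gate (x axis) and library, with exact 95% binomial intervals for counting error. The points outside the selected group run from transitional cells at 34.3% and 26.6% down to T and NK cells at 4.19% and 3.54%. Other classical monocytes, whose gate sum is capped by the gate rule, stand at 5.13% and 7.09%. All classical monocytes together stood at 28.0% and 22.7%.

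Against the other classical monocytes, the interferon-high cells carried higher levels of antiviral genes and interferon-inducible GTPases. Among 6703 genes with at least 50 UMIs in each library, 136 (2.03%) were at least 2-fold higher in both libraries and 208 (3.1%) at least 2-fold lower. The median gene stood at -0.11 and -0.14 on the log2 scale, and values below are to be read against that shift. Scaling by TMM, which removes it, gave 186 higher and 172 lower genes, and median-of-ratios scaling gave 192 and 168. Of the 208 lower genes only 27 were still among the 32 lower genes (0.527% of 6068) after cells with markers of other lineages were left out on both sides, while 116 of the 136 higher genes were still among the then 139 (2.29%). The values are descriptions of a group chosen on 4 of these transcripts, and no test was made.

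Antiviral effectors were higher in the members of both libraries. Ifit1, an RNA-binding restriction factor, was at 436 and 471 CPM in interferon-high monocytes against 55.2 and 38.9 CPM in the others, log2 ratios of 2.98 and 3.60. Rsad2 (viperin, a radical SAM enzyme that makes a chain-terminating nucleotide) was at 208 and 283 CPM against 24.6 and 15.5 CPM, ratios of 3.08 and 4.19. Isg15, a ubiquitin-like modifier, was at 1414 and 1495 CPM against 254 and 253 CPM, ratios of 2.48 and 2.56. All 3 of these genes, whose promoters are printed above, were higher in both libraries by far more than their counting error. In the list of type I interferon-stimulated genes 34 of the 39 compared genes were 2-fold higher in both libraries and none 2-fold lower, with medians of 1.47 and 1.74 (1.30 and 1.54 without other-lineage cells). Ifit3 (3.21 and 3.74), Ifit1bl1 (3.67 and 3.58), Ifit3b (3.24 and 3.49), Cmpk2 (2.77 and 2.46) and the 2′-5′-oligoadenylate synthetase-like Oasl1 (2.75 and 3.25) were also among its higher genes. The cytosolic RNA sensors Ifih1, which encodes MDA5 (1.73 and 2.25), and Ddx58, which encodes RIG-I (1.08 and 1.64), were higher too, as was the DNA-sensor relative Ifi205 (2.67 and 2.88). The genes of the list that stayed under 2-fold included some with high levels in all classical monocytes, such as Ifitm3, a restriction factor of viral entry, at 7680 and 8284 CPM against 5550 and 5920 CPM.

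The guanylate-binding proteins and immunity-related GTPases, which attack membranes around intracellular pathogens, were higher as 1 block. All 12 compared genes of this list, which leaves out Gbp2 and Gbp2b, were 2-fold higher in both libraries, with medians of 1.83 and 2.01 (1.79 and 1.97 without other-lineage cells). Iigp1 was at 207 and 231 CPM against 20.8 and 25.5 CPM, ratios of 3.31 and 3.18, and Gbp5, which promotes inflammasome assembly, at 97.5 and 96.1 CPM against 13.4 and 12.9 CPM, ratios of 2.87 and 2.90. Ifi47, an immunity-related GTPase, was at 797 and 1012 CPM against 213 and 206 CPM.

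Some regulators of the pathway were higher, and its receptors were under 2-fold. Of 22 compared receptor and signalling genes 6 were 2-fold higher in both libraries, among them Batf2 (2.66 and 2.74), the JAK inhibitor Socs1 (2.05 and 2.40), Irf7, the amplifier of type I interferon responses (1.71 and 1.79), Stat2 (1.09 and 1.46) and Irf1 (1.07 and 1.28). Other regulators were not: Irf9, the DNA-binding subunit of ISGF3, stood at 0.17 and 0.02, the feedback inhibitor Socs3 at -0.38 and -0.02, and Irf3, which acts in interferon induction, at -0.09 and 0.08. Ifnar1 stood at 0.15 and 0.30, Ifnar2 at -0.15 and -0.07, Ifngr2 at 0.14 and 0.04, and Ifngr1 was lower at -0.67 and -0.50. No interferon gene reached the filter. Ifnb1, Ifna1, Ifna2, Ifna4, Ifna5, Ifnl2 and Ifnl3 had 0 UMIs in the members, which allows up to 1.82 and 2.94 CPM at 3 counts, and Ifng had 3 and 0 UMIs.

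Among chemokines the difference was narrow. Cxcl9, a CXCR3 ligand typical of interferon-gamma, was at 466 and 467 CPM against 14.9 and 28.8 CPM, ratios of 4.97 and 4.02, the highest of any compared gene outside the gate by the smaller of both ratios. It was the only one of 11 compared chemokines that was 2-fold higher in both libraries, and the list's medians were -0.11 and 0.02. Without other-lineage cells Ccl4 was past 2-fold as well, at 1.01 and 1.96, and the medians were 0.32 and -0.07. Cxcl9 was present in 64 of 178 and 45 of 114 members, and its top cell held 10.8% and 9.24% of its UMIs, so it did not rest on 1 cell. Ccl2, a CCR2 ligand that recruits monocytes, stood at 0.34 and 1.10, and the neutrophil chemoattractant Cxcl2 at -0.82 and -0.73. The complement list, which leaves out the gate gene Cfb, had none of 6 compared genes past 2-fold and medians of -0.04 and -0.01 (-0.13 and -0.11 without other-lineage cells).

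Antigen presentation was modestly higher. Tap1, a subunit of the peptide transporter for class I loading, was the only one of 18 compared MHC class I genes past 2-fold, at 394 and 400 CPM against 188 and 186 CPM (1.07 and 1.10), and the list's medians were 0.65 and 0.57 (0.68 and 0.63 without other-lineage cells). The class I genes H2-Q6 (-1.71 and -0.57) and H2-Q7 (-1.12 and -0.97) were lower in both libraries, but stood at -0.12 and 0.51 and at 0.22 and 0.38 without those cells. The immunoproteasome subunits Psmb9 (0.81 and 0.89) and Psmb8 (0.66 and 0.57) lay between. The 8 MHC class II genes had medians of 0.41 and 0.33 (0.18 and 0.27 without other-lineage cells) and none past 2-fold, although Ciita, their master regulator, stood at 0.66 and 0.90.

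Several regulators of T cells were higher together. Of 12 compared genes 5 were 2-fold higher in both libraries. Cd274, which encodes the checkpoint ligand PD-L1, was at 64.2 and 70.6 CPM against 17.4 and 15.3 CPM, ratios of 1.88 and 2.21, and the costimulatory receptor Cd40 was at 118 and 135 CPM against 18.5 and 21.7 CPM, ratios of 2.68 and 2.64. The cytokine Il15 (1.48 and 1.67), its presenting receptor Il15ra (1.57 and 1.63) and the IL-18 antagonist Il18bp (2.17 and 1.83) were also past 2-fold. The costimulatory ligands Cd80 (0.49 and 0.61) and Cd86 (0.70 and 0.90) were not. The medians of the list were 0.84 and 0.79 (0.60 and 0.60 without other-lineage cells). The effector genes Nos2, Ido1, Il10, Il12a and Il12b had at most 1 UMI in the members of either library.

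**Figure D3:**
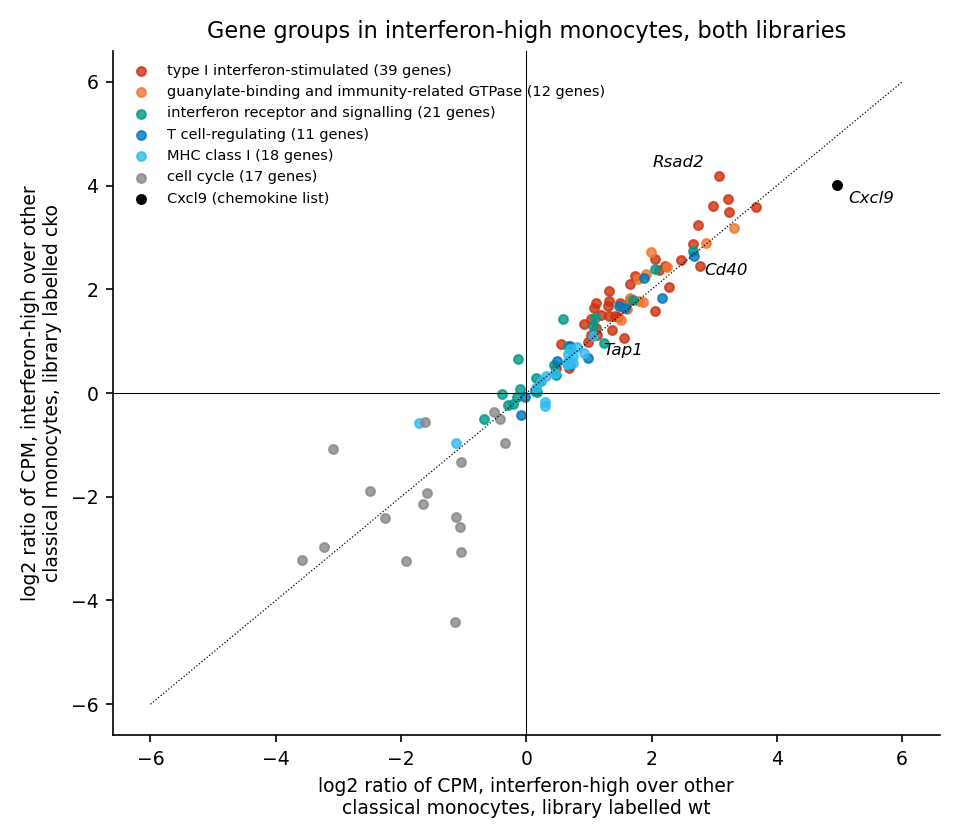
Log2 ratio of CPM, interferon-high over other classical monocytes, in the library labelled wt (x axis) against the library labelled cko (y axis), for compared genes of 6 lists, as far as they are reported here, and Cxcl9. Interferon-stimulated genes and GTPases lie in the upper right (Rsad2 at 3.08 and 4.19), MHC class I genes around medians of 0.65 and 0.57 with H2-Q6 (-1.71 and -0.57) and H2-Q7 (-1.12 and -0.97) below 0, and the cell cycle genes in the lower left.

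Proinflammatory genes were higher by less. Of 16 compared proinflammatory and NF-kB genes 12 were higher in both libraries and none lower, with medians of 0.39 and 0.67 (0.11 and 0.47 without other-lineage cells), and 3 were 2-fold higher: Irg1 (Acod1), which makes itaconate, at 54.5 and 72.6 CPM against 5.13 and 6.20 CPM (3.41 and 3.55), the IL-1 receptor antagonist Il1rn (1.45 and 1.52) and the inflammatory caspase Casp4 (1.27 and 1.37). Il1b stood at 0.16 and 0.78. Without other-lineage cells it stood at -0.07 and 0.57, and the lectin receptor gene Clec4e (-0.42 and -0.10) and the transcription factor gene Cebpb (-0.18 and -0.07) were lower in both libraries. Tnf with 10 and 8 UMIs and Il6 with 2 and 2 in the members had too few to compare. The immediate-early and heat-shock genes, which also report dissociation stress, had medians of -0.24 and -0.31 over 16 compared genes, with 12 lower and 2 higher in both libraries and none past 2-fold (medians of -0.34 and -0.37 without other-lineage cells). Hypoxia and glycolysis genes had medians of 0.13 and 0.12 (0.16 and 0.06 without those cells), with 9 of 16 higher and 2 lower in both libraries, again none past 2-fold.

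Monocyte identity genes went in both directions, 11 of 21 higher and 6 lower in both libraries. Of the 21 compared identity genes 4 were 2-fold higher in both libraries: Ly6a (Sca-1, 1.58 and 1.45), Ly6i (1.59 and 1.47) and the activating IgG receptors Fcgr1 (CD64, 1.37 and 1.19) and Fcgr4 (1.12 and 1.29). Without other-lineage cells Fcgr1 (1.12 and 0.97) and Fcgr4 (0.90 and 1.07) fell short of 2-fold in 1 library each. Ccr2 stood at -0.08 and -0.07, and Plac8 at 0.68 and 0.64. Without those cells Ccr2 was lower at -0.29 (-0.39 to -0.19) and -0.28 (-0.39 to -0.18), and the median of the list moved from 0.14 and 0.34 to -0.13 and 0.15. Among the lower genes, none past 2-fold, were the haptoglobin gene Hp (-0.85 and -0.50), the coagulation factor gene F13a1 (-0.62 and -0.84), the fibronectin gene Fn1 (-0.69 and -0.57) and the lipopolysaccharide co-receptor gene Cd14 (-0.39 and -0.67). Of 19 compared macrophage maturation genes 7 were higher and 9 lower in both libraries, none 2-fold higher, with medians of 0.07 and -0.11 (0.03 and -0.37 without other-lineage cells), and the fractalkine receptor gene Cx3cr1 was lower, at 4.24 and 11.8 CPM against 24.6 and 28.1 CPM. Cell cycle genes were lower, 13 of 17 compared past 2-fold in both libraries, for example Ccnb2, a cyclin of mitosis, at 4.85 and 6.87 CPM against 45.7 and 53.6 CPM. The medians of this list were -1.58 and -2.14, and -0.88 and -1.87 without cells carrying markers of other lineages, so part of the difference in the library labelled wt went with those cells. The lowest genes by the fixed rule included Gzmc, Jchain, Cox6a2, Gzmf, Gzme, Serpinb9b, Ly6d, Lag3 and Gzmd, mostly genes of cytotoxic lymphocytes and plasmacytoid dendritic cells. None of these was among the 32 lower genes without other-lineage cells. Among 9 compared targets of miR-21 known from earlier work none was 2-fold higher, and Pdcd4, a translation inhibitor, was lower at 11.5 and 4.90 CPM against 37.0 and 34.3 CPM.

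The members were split by Ifit2, a gate gene and itself an antiviral gene, so that a difference in the genes that vary with it describes the split. Cells with at least 3 UMIs of Ifit2 (45 and 31 cells) were set beside members with none (94 and 56), at similar median depths of 8925 against 8976 and of 8821 against 8248.5 UMIs. The type I genes named here differed between the 2 subsets to unequal degrees: Rsad2 by 5.37 and 5.30 on the log2 scale, Ifit1 by 4.60 and 3.72, Ifit3 by 4.38 and 4.09, Cmpk2 by 4.28 and 4.40 and Usp18, a protease that removes ISG15, by 3.57 and 4.09. Ifit1 was at 1252 CPM in the wt-labelled cells with Ifit2 and at 51.7 CPM in those without. Cxcl10 differed by 2.41 and 2.29, Isg15 by 2.20 and 2.05, the nucleic acid-sensor relative Ifi205 by 1.99 and 1.99 and Rtp4 by 1.27 and 1.06. Genes shared with the interferon-gamma route ran from values like that of Rtp4 to below 0. Batf2 stood at 1.33 and 1.10, Irgm1 at 1.09 and 0.77, Gbp5 at 0.94 and 0.96, Socs1 at 0.69 and 1.55, Cxcl9 at 0.57 and 0.04, Gbp4 at 0.49 and -0.33, and Gbp2 at -0.52 and -0.24. A member without Ifit2 must reach the limit through Gbp2, Cxcl10 or Cfb, so the rule itself fills that subset with cells high in Gbp2, and the values of Gbp2, Cxcl10 and of genes that vary with Gbp2, such as Cxcl9, are partly set by it. Of further genes, the interferon-inducible Fcgr1 differed by 0.97 and 1.11, and Saa3, an acute-phase protein gene, by -2.14 and 0.77, with 68.0% of its UMIs labelled wt in 1 member.

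**Figure D4:**
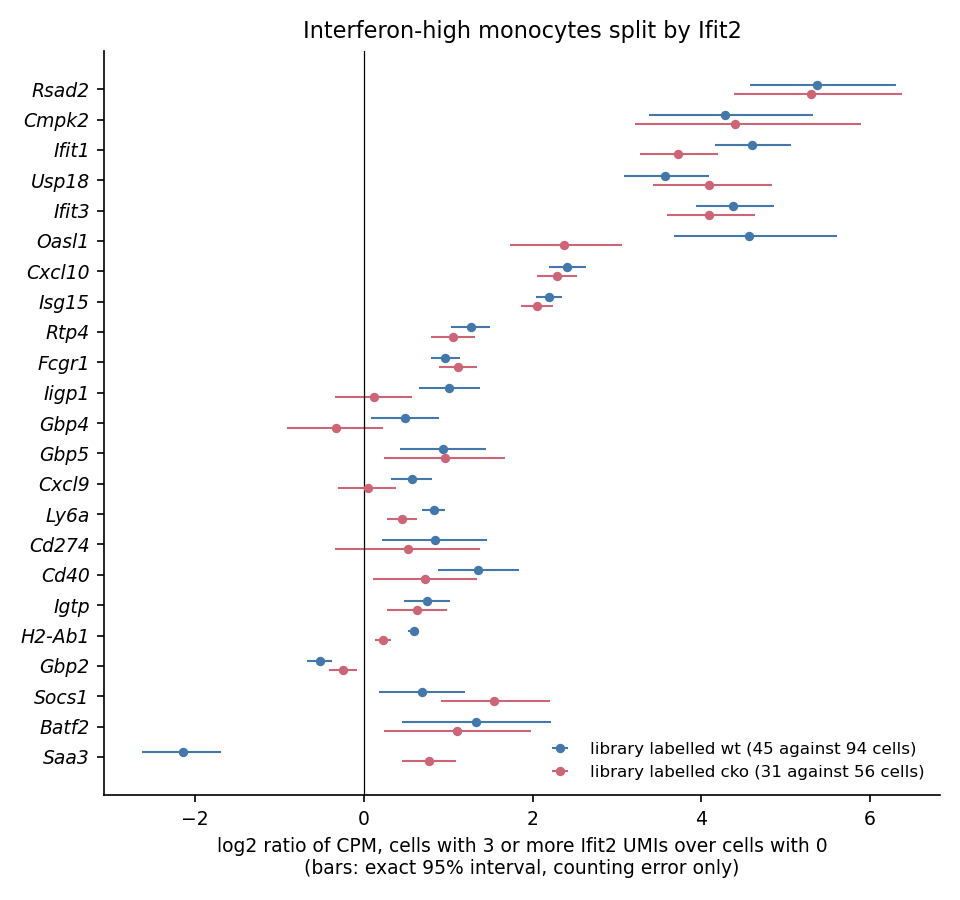
Log2 ratio of CPM (x axis) between members with at least 3 UMIs of Ifit2 and members with none, for 23 genes (y axis) in both libraries, with exact 95% intervals for counting error. Rsad2 (5.37 and 5.30) and several other antiviral genes stand far to the right in both libraries, and Gbp2 (-0.52 and -0.24) and Cxcl9 (0.57 and 0.04) near 0.

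Across single members, Spearman's rho between UMIs of Ifit2 and Ifit1 was 0.68 over 178 cells and 0.70 over 114, and between Ifit2 and Cxcl10 it was 0.45 and 0.47. Between Ifit2 and Gbp2 it was -0.21 and -0.15 and between Cxcl10 and Gbp2 -0.23 and -0.25, whereas Gbp2 and Cxcl9 gave 0.37 and 0.24. These are descriptions: the cells of a library share its pool and depth, and the limit on the summed gate genes itself pushes their pairs apart. The sum of 7 type I genes and the sum of 7 GTPase-side genes, none of them used for the gate, gave 0.43 and 0.30. These UMI counts were not scaled for the depth of each cell, which raises such values.

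Between the libraries most interferon-stimulated genes of the members differed little. Of the 4851 genes that had 50 UMIs or more in the members of both libraries together, 22 (0.454%) were at least 2-fold higher and 25 (0.515%) at least 2-fold lower in the members labelled cko, and the median gene stood at 0.01. The other classical monocytes gave 29 of 8074 (0.359%) and 48 of 8074 (0.595%), and they share their libraries with the members. Of the 52 compared genes of both interferon lists, 51 lay within 0.5 of 0 on the log2 scale and 40 were higher in the library labelled cko. The medians were 0.24 for the type I list (-0.03 in the other monocytes) and 0.09 for the GTPases (-0.05). Isg15 stood at 1414 and 1495 CPM (0.08, 95% interval -0.01 to 0.17) and Cxcl9 at 466 and 467 CPM (0.00, -0.16 to 0.17). Of the gate genes, Cxcl10 stood at 0.72 (0.60 to 0.84), Ifit2 at 0.44 (0.20 to 0.68), Gbp2 at 0.00 (-0.09 to 0.09) and Cfb at -0.22 (-0.56 to 0.11). Their sum is held at 8 or more in both libraries by the rule.

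**Figure D5:**
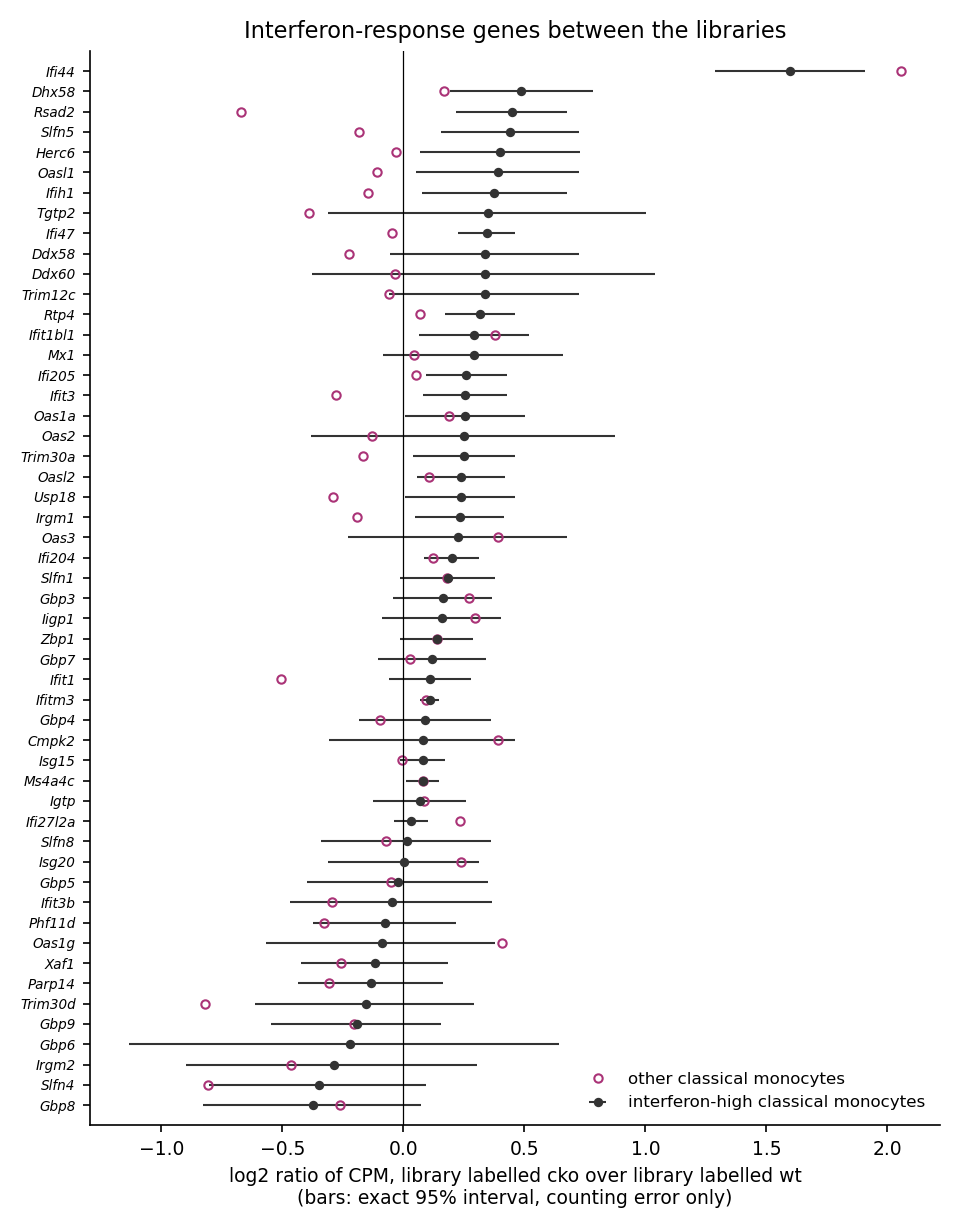
Log2 ratio of CPM, library labelled cko over library labelled wt (x axis), for the 52 compared genes of both interferon lists (y axis), with filled points and exact 95% counting intervals for interferon-high monocytes and open points for the other classical monocytes where these had at least 50 UMIs. All filled points lie within 0.5 of 0 except Ifi44 at 1.60.

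A few interferon-inducible genes departed from this. Ifi44 was at 81.8 and 247 CPM in the members (1.60, 1.29 to 1.91) and at 19.8 and 82.2 CPM in the other monocytes (2.06). Its neighbour Ifi44l was at 35.1 and 126 CPM (1.84, 1.38 to 2.31). Gbp2b, the neighbour of Gbp2, was at 139 and 363 CPM (1.39, 1.15 to 1.63) and at 12.1 and 83.4 CPM in the other monocytes (2.79). In these genes the difference between libraries was thus present in both groups of monocytes. Gbp2 itself stood at 0.00 and, in the other monocytes, at -0.03. The limit on the gate sum bounds its level in both groups, so it gives no contrast to Gbp2b. Chil3, a chitinase-like protein of monocytes and alternatively activated macrophages, was at 1758 and 3865 CPM (1.14, 1.07 to 1.21) and in the other monocytes at 1594 and 3351 CPM (1.07). Together with Gclm these genes lie on chromosome 3, which held 5 of the 22 higher genes and 5.11% of the genes compared. Gbp2b is at chr3:142594847-142619179, Ifi44 at chr3:151730922-151749960, Ifi44l at chr3:151758737-151762892, Chil3 at chr3:106147554-106167564 and Gclm at chr3:122245557-122270732 (GRCm38). Trim12a, an interferon-inducible relative of the restriction factor TRIM5, had 37 UMIs in the members labelled wt and 1 in those labelled cko, and 23.9 and 0.48 CPM in the other monocytes. With 1 library each, the pools of mice and the genotype cannot be told apart in these differences.

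Tgfb1, which encodes the immunosuppressive cytokine TGF-beta 1, was at 397 and 136 CPM (-1.54, -1.82 to -1.27) and in the other monocytes at 405 and 144 CPM (-1.49). It was found in 163 of 178 and 76 of 114 members, and without its top cell the ratio was -1.59, so it did not rest on a few cells. The difference was as large outside the interferon-high group. Lyz2 was at 20198 and 11358 CPM (-0.83, -0.86 to -0.80) and its paralog Lyz1 at 29.1 and 201 CPM (2.79, 2.33 to 3.27), of which 1 cell held 32.7% in the library labelled cko. The MHC class II list had a median of -0.33 (-0.25 in the other monocytes). H2-Eb1 (-0.51), H2-Aa (-0.42), H2-Ab1 (-0.41) and the invariant chain Cd74 (-0.30) lay below 0 beyond their counting error, and none was past 2-fold.

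Ccl5, a chemokine for T cells and monocytes that lymphocytes also make, was at 250 and 32.4 CPM (-2.95, -3.50 to -2.43) in the members, and at 381 and 293 CPM (-0.38) in the other monocytes. It was spread over 43 cells in the library labelled wt and 14 in the library labelled cko. Without cells carrying markers of other lineages the ratio was -2.55 in the members, and the other monocytes then stood at 50.9 and 66.3 CPM (0.38). Ccl5 was thus lower in the interferon-high monocytes of the library labelled cko, by more than in the remaining classical monocytes. With 1 library each, that contrast was not tested. Ccl24, an eosinophil chemoattractant, was at 41.8 and 3.92 CPM (-3.41, -5.33 to -1.99). It had 4 UMIs in the members labelled cko, 3 of them in 1 cell, and 36.2% of its UMIs labelled wt in 1 cell. Ccl24 was lower in the other monocytes as well, at 17.7 and 7.63 CPM (-1.22, -1.87 to -0.59). Mmp13, a collagenase, was at 63.6 and 20.6 CPM (-1.63, -2.38 to -0.94) in the members. In the other monocytes Mmp13 went the other way, at 10.8 and 20.7 CPM (0.94, 0.40 to 1.51), a contrast that was not tested.

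Several other ratios rested in part on single cells. Hmox1, which degrades heme, was at 130 and 460 CPM (1.83), with 43.3% of the UMIs labelled cko in 1 cell and a ratio of 1.08 without the top cells. Gclm (1.64) had 54.2% in 1 cell and stood at 0.70 without it. Pf4 (-2.63) and Spp1 (-2.09) had 72.0% and 69.7% of their UMIs labelled wt in 1 cell, and without the top cells they stood at -1.37 and -0.68. Ccl7 (-2.15) had 54.7% in 1 cell and stood at -1.94 without the top cells. The lymphocyte protease gene Gzma (-2.78) had 74.2% in 1 cell and stood at -2.24 without the top cells, but at 1.63 without cells carrying markers of other lineages. The lymphocyte protease gene Gzmb moved from -2.02 to -0.25 when those cells were left out. Of the 22 higher and 25 lower genes, 20 and 24 remained past 2-fold when each gene lost its top cell in each library.

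Of the genes past 2-fold some are known from granulocytes, a grouping made after their values were seen. Higher in the members labelled cko were Lcn2 at 23.6 and 86.3 CPM (1.87), Retnlg at 13.9 and 43.2 CPM (1.63), Cd177 at 12.1 and 33.3 CPM (1.46), Wfdc21 (1.06) and the protease inhibitor gene Slpi (1.01), and Pglyrp1, a bactericidal granule protein gene, was lower at 35.1 and 15.7 CPM (-1.16). The neutrophil marker list summed to 473 and 812 CPM in the members, mostly S100a8 and S100a9, which the rule caps, and to 90.9 and 125 CPM without them, with Csf3r at 60.6 and 66.7 CPM and Mmp9 at 7.27 and 1.96 CPM. The part of neutrophil RNA in these values was not tested. Ccl3, which attracts monocytes and neutrophils, stood at 43.0 and 110 CPM (1.35), but at -0.30 with the limit at 6 gate UMIs.

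The remaining lists had medians from -0.09 to 0.36 between the libraries. None of their compared genes was past 2-fold for the signalling genes (21 compared, median 0.10), complement (6, 0.11), MHC class I (17, -0.02), proinflammatory genes (15, 0.19), hypoxia and glycolysis (15, -0.03), immediate-early and heat-shock genes (13, 0.26) and known targets of miR-21 (5, 0.36). Within that range some lists lay mostly to 1 side: 14 of 15 proinflammatory genes, 16 of 21 signalling genes and 5 of 6 complement genes were higher in the members labelled cko, and 11 of 17 MHC class I genes and all 5 compared cell cycle genes were lower. The targets compared included Btg2, an antiproliferative gene, at 133 and 182 CPM (0.46, 0.17 to 0.75). In the other lists the genes past 2-fold were Ifi44 among 39 type I genes, Ccl3 upward and Ccl5 and Ccl7 downward among 11 chemokines (median 0.00), Tgfb1 among 12 T cell-regulating genes (0.03), Chil3, Lyz1 and Cd177 upward among 20 identity genes (0.20), Pf4, Spp1 and Mrc1 downward among 17 macrophage genes (0.01) and Stmn1 downward among 5 cell cycle genes (-0.09). None of the 13 compared GTPases was past 2-fold, since Gbp2b was not in that list.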

How the data were processed

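Single-cell RNA sequencing (10x Genomics 3′ chemistry, version 2) was run on tumor leukocytes as 1 library per genotype, each from 3 pooled mice. The authors deposited raw UMI counts for 27998 gene rows per called cell, and the submitters' processing notes name Cell Ranger, Seurat and mm10, without versions. UMIs were counted per gene at the 3′ end, so levels are not scaled by length.

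Libraries were grouped by title. UMIs were summed over the cells of a group and scaled to 1000000 (CPM). Log2 ratios have exact conditional binomial 95% intervals and shares exact Clopper-Pearson 95% intervals, both for counting error only. With 1 library per group no test was made and no p-value is given. A gene was compared between libraries with at least 50 UMIs over both, and between members and other classical monocytes with at least 50 UMIs in each library. A gene was counted as past the limit at 2-fold, in both libraries for the second comparison, and a count of 0 was set to a floor of 3. Cells were thinned to 3000 UMIs for shares of cells with a UMI. The calculation was checked on simulated data.

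The members and the 16 gene lists were chosen with earlier results of these data known. Of 287 list genes looked for, 2 were not found (Mx2 and Cxcl11, not analysed here), and values of a few single genes are not reported here although they enter the counts and medians. Besides list genes, the text names the 10 genes at each end of each comparison, ranked by the less extreme of both libraries' ratios or by the interval bound nearest to 0. Gene positions are from GENCODE M21 (GRCm38, the assembly mm10 is built on) and promoter windows from RefSeq. Tools were Python 3.11.15, numpy 2.4.6, scipy 1.17.1, pandas 2.3.3, matplotlib 3.10.9, scanpy 1.11.5 (Scrublet) and R 4.3.3 with edgeR 4.0.16, used for TMM factors alone. Alternatives covered the gate limit, other lineages, doublets, mitochondrial share, shared barcodes, scaling, the UMI filter, averaging over cells and single cells of high count.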

Additional observations from a re-analysis of the deposited data

Results flagged for a closer look

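For 7 named genes the ratio of interferon-high over other classical monocytes had opposite signs in the libraries labelled wt and cko with both counting intervals off 0. Genes whose sign differed with an interval that included 0 are not counted. The difference between the libraries was not tested in any of them, since each has 1 library.

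Chemokines were among them. Ccl3 stood at -1.04 in the library labelled wt and at 0.45 in the library labelled cko, and without cells carrying markers of other lineages at -0.15 (-0.58 to 0.27) and 0.53. Ccl4, a related chemokine, stood at -0.63 and 1.12. Without those cells Ccl4 was higher in the members of both libraries, at 1.01 and 1.96, and 1 cell held 24.9% and 43.8% of its UMIs in the members. Pf4, a platelet and macrophage chemokine, stood at 0.91 and -2.88, with 72.0% of its UMIs in 1 member of the library labelled wt.

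The oxidative stress genes Hmox1, at -0.53 and 1.35, and Gclm, at -0.91 and 1.15, had 43.3% and 54.2% of their UMIs in 1 member of the library labelled cko. Lyz1 stood at -0.62 and 0.83. Mif, a cytokine present in most cells, stood at 0.13 and -0.16, both small beside the 2-fold limit. The part that single cells have in these differences was otherwise not tested.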

How the results depend on the processing

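The 4 gate genes decide membership, and Gbp2 decides most of it. With Ifit2, Cxcl10 and Cfb alone at 8 UMIs, an alternative added after seeing the data, the log2 ratio of the shares was -0.18, 13 genes were 2-fold higher in the library labelled cko, and Gclm (-1.14), Hmox1 (-0.36) and Gzma (1.27) between libraries and Mcm6 (0.22) against other monocytes turned sign. The thinned share, also added after seeing the data, kept its direction at -0.30 (-0.63 to 0.02). Without other-lineage cells 32 genes were 2-fold lower against other monocytes. Ccnb1 (0.073), Cox6a2 (1.01), Gzmf (0.37), Jchain (0.46), Ly6d (1.37) and Serpinb9b (1.79) then turned sign by the less extreme of both libraries' ratios. So did Gzma (1.63) between libraries. Lag3 turned in the library labelled cko (0.20) and stayed at -1.45 (-4.67 to 0.74) in the library labelled wt. These genes had few UMIs left. With the limit at 6 gate UMIs Ccl3 turned to -0.30. A filter of 10 UMIs, which admits genes of few counts, gave 240 higher and 405 lower genes between libraries and 531 lower against other monocytes, and dropping each gene's top cell gave 48 lower genes between libraries. Of 1482 values of single named genes over the alternatives, 1348 stayed within their counting interval, 121 moved and 13 turned sign. The limits of 12 UMIs and of 8 per 10000 UMIs, the removal of doublet scores, a mitochondrial limit of 5%, the removal of shared barcodes and both scalings left the counts within 1.5 times. No paired analysis was possible because each genotype has 1 library. Depth limits genes under 50 UMIs, and no setting stands in for replicate mice.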
